A study of Mus musculus with 9 samples.

Results

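The lysosomal proton pump, the Lamp membrane proteins and the cathepsins were followed in mouse perigonadal fat that carried 1 of 2 mutant alleles of Lmna, the gene for the A-type lamins of the nuclear envelope, or neither. Members were taken by name, as every gene whose single platform symbol starts with Atp6v, Atp6ap or Lamp, or consists of Cts and 1 further letter. This gave 44 of the 16299 genes with such a symbol, measured by 551 of 229581 probe sets. They comprised 13 genes of the V1 sector and 8 of the V0 sector of the pump, 2 accessory proteins, 3 Lamp proteins, 14 cysteine cathepsins, 2 aspartic cathepsins and 2 serine cathepsins. Of the 44 genes, 36 passed the filter on dim genes and were tested, and 8 lay under it.

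Exon arrays were run on white fat of the perigonadal depot, taken at an age of 4 months, and 9 are used here: 3 of G609G/G609G mice, 3 of LCS/LCS mice and 3 of wt mice, written G609G, LCS and WT. G609G is known as a progeria allele that gives the truncated lamin A called progerin, and LCS as an allele that leaves lamin C as the A-type lamin. The labels name no Cre driver or cell type for either allele, and the fat was powdered whole, with no cell sorting. The replicates are called biological but the animals are not named, and p-values therefore speak of array-to-array spread alone, which may be technical; with 3 arrays a group the precision is limited.

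The vacuolar proton pump is a rotary machine: the cytosolic V1 sector breaks down ATP, and its central stalk drives the membrane-bound V0 sector, which carries protons into the lysosome. Many subunits exist as alternative isoforms of separate genes, some used by nearly all cells and others by acid-secreting cells of kidney and epididymis or by osteoclasts. The acid interior activates the cathepsins, proteases that degrade proteins delivered by endocytosis and autophagy, and the heavily glycosylated Lamp proteins line the membrane. Many of these genes carry, near their start, a palindromic element bound by Tfeb, Tfe3 and Mitf, the transcription factors of lysosome formation.

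To show this element in the genes measured here, stretches of 4 member promoters are printed, with the palindrome in capitals. They come from RefSeq on GRCm38.p6, which is not the build named for the arrays (mm9), and each is given 5′ to 3′ on the strand of its gene. The first 3 hold the palindrome of 8 letters within up to 60 bases on either side, cut at the transcription start. The stretch of Atp6v1a, the catalytic subunit A of V1, lies at chr16:44139324-44139451 on the minus strand. That of Ctsa, protective protein cathepsin A, lies at chr2:164833700-164833772 on the plus strand, and that of Ctsd, the aspartic protease cathepsin D, at chr7:142387859-142387986 on the minus strand. The fourth, the 90 bases before the start of Lamp1 at chr8:13159071-13159160 on the plus strand, holds the inner 6 letters 4 times.
Atp6v1a: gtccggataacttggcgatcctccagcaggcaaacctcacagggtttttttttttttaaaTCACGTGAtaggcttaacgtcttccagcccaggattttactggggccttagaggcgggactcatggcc
Ctsa: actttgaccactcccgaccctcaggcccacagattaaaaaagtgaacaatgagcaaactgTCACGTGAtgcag
Ctsd: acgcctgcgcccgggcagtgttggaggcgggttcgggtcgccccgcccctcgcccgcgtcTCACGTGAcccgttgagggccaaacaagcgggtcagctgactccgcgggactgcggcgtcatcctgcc
Lamp1: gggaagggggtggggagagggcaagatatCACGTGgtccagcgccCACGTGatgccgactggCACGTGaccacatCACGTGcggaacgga

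RefSeq gave a promoter window, from 250 bases before to 50 bases after the start, for 34 of the 44 members. The letters CACGTG stood in the windows of 9 of these 34 members (26.5%), namely Atp6v0b, Atp6v0d1, Atp6v0e, Atp6v1a, Ctsa, Ctsd, Ctsf, Ctsl and Lamp1, against 2187 of all 27025 genes with a window (8.09%). The longer palindrome TCACGTGA, which contains the first, stood in those of 5 members (14.7%), Atp6v0d1, Atp6v0e, Atp6v1a, Ctsa and Ctsd, against 304 of all genes (1.12%). Both motifs read alike on either strand. A match describes the letters of the window and is not a measured binding site.

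Array values were log2 intensities, summarised per gene over its probe sets. The G609G arrays were lower for most genes: as deposited, the median gene differed by -0.47 between G609G and WT and by 0.05 between LCS and WT. Each array was therefore shifted by the deviation of its median gene, which moved the differences between G609G and WT up by 0.46. Differences are those of the group named first minus the other. The values below are on this scaled log2 scale unless called deposited, and a change is relative to the median gene of 11342 tested, whose own median difference was -0.01 for G609G against WT, 0.02 for LCS against WT and 0.02 for G609G against LCS. The offset differed with the level of a gene. Of all genes with a mean level up to 4, the median difference between G609G and WT was 0.57, and of those between 5 and 6 it was 0.18. Between 6 and 7 it was -0.06 and between 7 and 8, the level of Atp6v1g2, it was -0.12. Between 8 and 11 the medians ran from -0.03 to 0.03. Arrays of a group correlated over probe sets with r of 0.972 to 0.990, against 0.904 to 0.919 between G609G and WT and 0.965 to 0.971 between LCS and WT.

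The labelled tissue was checked by its markers. All 14 mature adipocyte markers passed the filter, with mean levels of 11.40 to 11.43 on the G609G arrays, 12.01 to 12.04 on the LCS arrays and 11.83 to 11.90 on the WT arrays. Skeletal muscle markers averaged 11.85 to 11.92 on the G609G arrays, 5.51 to 5.57 on the LCS arrays and 5.27 to 5.45 on the WT arrays, with 14 of 14 called higher in G609G and 3 higher and 1 lower in LCS. Of the adipocyte markers, 4 rose and 7 fell in G609G and 6 rose and 1 fell in LCS. Their median difference from WT was -0.07 in G609G and 0.10 in LCS. Lep, which weighs on the means above, had -5.41 in G609G and 1.11 in LCS. Markers of epididymal principal cells, a neighbouring tissue, averaged 9.19 to 9.28 on the G609G arrays, 10.25 to 10.32 on the LCS arrays and 12.15 to 12.31 on the WT arrays. Of 12 of these, 3 rose and 8 fell in G609G and 3 rose and 6 fell in LCS. Among all genes 34.0% were called higher and 36.7% lower in G609G, and 22.3% and 17.7% in LCS. The part of muscle and epididymal RNA in the results on the members and on the gene lists was not tested. In whole tissue, fewer cells of a type and less RNA per cell cannot be told apart.

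In G609G fat 7 of 12 tested cathepsins and 10 of 20 tested pump subunits fell relative to the median gene. There 2 cathepsins and 5 pump subunits rose, Ctsl and Atp6v1e1 the most. By limma (adjusted p under 0.05 over all 11342 genes), 9 of the 36 tested members were higher in G609G than in WT and 19 were lower, against 34.0% of all genes called higher and 36.7% called lower. Their median difference was -0.15. On the deposited scale, without the shift, 2 members were called higher and 32 lower, beside 8.26% and 71.3% of all genes. In LCS fat 9 of 12 tested cathepsins rose. There 15 members were higher than in WT and 4 were lower, against 22.3% and 17.7% of all genes, with a median of 0.11, and the deposited scale gave the same 15 and 4. Directly compared, 9 members were higher and 21 lower in G609G than in LCS, against 36.9% and 36.9% of all genes, with a median of -0.24. On the deposited scale these were 1 and 31, beside 9.38% and 70.5% of all genes. Of the members, 8 fell in G609G, rose in LCS and were lower in G609G than in LCS, while Atp6v1e1 and Ctsl were higher in G609G than in LCS and higher in LCS than in WT. The share of all genes with either pattern was not counted. The array values of G609G and WT did not overlap for 10 members that were higher and 19 that were lower, against 71.6% of all genes in either direction. Those of LCS and WT did not overlap for 19 and 5 members, against 57.8%, and those of G609G and LCS for 9 and 23, against 75.3%. Any 2 of the comparisons share the arrays of 1 group, so their calls are not independent.

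The group difference on Atp6v0d2 was larger than on any other member. It encodes subunit d2, the isoform of the V0 stalk attachment used by osteoclasts and by kidney and epididymis. Atp6v0d2 had 5.80, 5.44 and 6.10 on the G609G arrays, 9.06, 9.01 and 9.0 on the LCS arrays and 8.95, 8.96 and 8.87 on the WT arrays. The G609G arrays lay far below all 6 others, which were close together. The difference was -3.15 (SE 0.12, limma adjusted p = 4.4e-10) for G609G against WT, 0.10 (SE 0.12, adjusted p = 0.574) for LCS against WT and -3.25 (SE 0.12, adjusted p = 2.62e-10) for G609G against LCS. The G609G values lie close to the filter on dim genes at 5.09.

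The other isoform, subunit d1 from Atp6v0d1, is the one used by nearly all cells. Atp6v0d1 had 9.81, 9.86 and 9.97 on the G609G arrays, 10.45, 10.36 and 10.37 on the LCS arrays and 10.10, 10.02 and 9.98 on the WT arrays. All 3 groups were apart, with LCS highest and G609G lowest. The difference was -0.15 (SE 0.05, limma adjusted p = 0.0127) for G609G against WT, 0.36 (SE 0.05, adjusted p = 6.51e-05) for LCS against WT and -0.51 (SE 0.05, adjusted p = 8.88e-07) for G609G against LCS. The first of these was lost without G609G replicate 1 (-0.12, adjusted p = 0.0527) and without WT replicate 1 (-0.12, adjusted p = 0.0583).

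Markers of cells that are known to use subunit d2 moved with it in part. Of 6 tested markers of epididymal clear cells and renal intercalated cells, 2 rose and 4 fell in G609G. Those that fell were Rhcg, an ammonia transporter (-3.69), Foxi1, the transcription factor of these cells (-1.04), Aqp9 (-0.74) and Kit (-0.57). Those that rose were Slc4a9 (0.44) and Foxi2 (0.24). In LCS none rose and 2 fell, Aqp9 (-0.81) and Rhcg (-0.75), while Atp6v0d2 was not called. The mean over this list was 6.49 to 6.77 on the G609G arrays, 7.17 to 7.18 on the LCS arrays and 7.49 to 7.53 on the WT arrays. Among 10 tested markers of lipid-laden macrophages and osteoclasts, 1 rose and 6 fell in G609G, and 5 rose and 1 fell in LCS. In G609G Acp5, the tartrate-resistant acid phosphatase, which stands in the hydrolase list too, had -1.43, and Ocstamp rose by 0.40. The shares of all genes called higher and lower were 34.0% and 36.7% in G609G and 22.3% and 17.7% in LCS. The part of clear cells, intercalated cells, macrophages and osteoclasts in the difference on Atp6v0d2 was not tested.

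The remaining 6 V0 genes split in G609G. Atp6v0a1, one of the large a subunits that form the proton half-channel, had -0.59 (SE 0.04, limma adjusted p = 1.74e-07) for G609G against WT and 0.22 (SE 0.04, adjusted p = 0.00166) for LCS against WT, so that it fell in G609G and rose in LCS. Atp6v0e2, the alternative isoform of the small e subunit, fell by 0.84 in G609G (SE 0.06, adjusted p = 2.04e-07) and had 0.04 in LCS (adjusted p = 0.637). Its partner isoform Atp6v0e was higher by 0.18 in G609G (SE 0.04, adjusted p = 0.00114), as was Atp6v0a2, a Golgi and endosome isoform of subunit a, at 0.19 (SE 0.04, adjusted p = 0.00194). Both have the opposite sign on the deposited scale, with -0.28 each, and both calls were lost without the intensity filter, at 0.04 each. Atp6v0a4, the kidney and epididymis isoform of subunit a, rose by 0.32 in LCS (adjusted p = 0.00452) and had 0.15 for G609G against WT (adjusted p = 0.0999), with -0.18 for G609G against LCS (adjusted p = 0.0503). Of 18 other settings, 4 called Atp6v0a4 higher for G609G against WT, and the deposited scale called it lower. For G609G against LCS 5 of the 18 called it lower. Atp6v0b, of the proton-binding ring, was called in no comparison of the main fit. Of 19 other settings, 8 called Atp6v0b lower for G609G against LCS and 3 called it lower for G609G against WT. Altogether 2 of the 8 V0 genes rose and 4 fell for G609G against WT, 3 rose and none fell for LCS against WT, and 2 were higher and 4 lower for G609G against LCS. Among all genes 34.0% and 36.7%, 22.3% and 17.7%, and 36.9% and 36.9% were called higher and lower in the same order. Tcirg1, the osteoclast isoform of subunit a under another name, was outside the naming rule and had -0.00 in G609G and 0.28 in LCS (adjusted p = 0.00471).

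The V1 sector held the largest rise among pump genes. Atp6v1e1, the ubiquitous isoform of the peripheral stalk subunit E, had 10.93, 10.92 and 10.95 on the G609G arrays, 10.23, 10.24 and 10.23 on the LCS arrays and 10.08, 10.00 and 10.07 on the WT arrays. The groups did not overlap and lay in the order G609G, LCS, WT. Its difference was 0.88 (SE 0.03, limma adjusted p = 1.55e-10) for G609G against WT, 0.19 (SE 0.03, adjusted p = 0.0005) for LCS against WT and 0.70 (SE 0.03, adjusted p = 1.15e-09) for G609G against LCS. It was higher in G609G on the deposited scale as well, with 10.58, 10.58 and 10.67 against 10.19, 10.11 and 10.27 in WT.

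Subunit G, the partner of E in the peripheral stalk, has a ubiquitous isoform, Atp6v1g1, a neuronal one, Atp6v1g2, and a kidney and epididymis one, Atp6v1g3. Atp6v1g3 had 5.40, 5.75 and 5.55 on the G609G arrays, 5.73, 5.73 and 5.75 on the LCS arrays and 6.76, 6.85 and 6.95 on the WT arrays. Both mutants lay about 1 log2 unit below WT and overlapped each other. The difference was -1.29 (SE 0.10, limma adjusted p = 2.15e-07) for G609G against WT, -1.11 (SE 0.10, adjusted p = 2.9e-06) for LCS against WT and -0.17 (SE 0.10, adjusted p = 0.133) for G609G against LCS. Its levels are close to the filter at 5.09. The G609G to LCS difference was called in 5 other settings, as deposited (-0.67), over bright probe sets only (-0.35), without the intensity filter (-0.34), with quantile normalisation (-0.34) and without G609G replicate 2 (-0.26). Of the 12 epididymal principal cell markers, 8 fell and 3 rose in G609G, against 36.7% and 34.0% of all genes. In LCS 6 of them fell and 3 rose, against 17.7% and 22.3%. The markers that fell were in part different genes in G609G and in LCS. The part of epididymal cells in the fall of Atp6v1g3 was not tested.

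Atp6v1g1 had 9.28, 9.50 and 9.42 on the G609G arrays, 8.94 on each of the LCS arrays and 9.12, 9.08 and 8.98 on the WT arrays. The G609G arrays were above both other groups, by 0.34 over WT (SE 0.06, limma adjusted p = 0.000164) and by 0.46 over LCS (SE 0.06, adjusted p = 1.2e-05), but not as deposited, where it had -0.12 and -0.04. Atp6v1g2 had 7.18, 7.67 and 6.99 on the G609G arrays, 7.71, 7.91 and 7.79 on the LCS arrays and 7.70, 7.72 and 7.63 on the WT arrays. G609G replicate 2 lay within the WT range and the other G609G arrays below it. The difference of -0.40 for G609G against WT (SE 0.14, adjusted p = 0.0184) lost its call without G609G replicate 1 (-0.35), without G609G replicate 3 (-0.26) and without WT replicate 2 (-0.39), and with quantile normalisation (-0.24).

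Of the other V1 genes, Atp6v1a, the catalytic subunit whose promoter is printed above, fell by 0.53 for G609G against WT (SE 0.06, limma adjusted p = 4.07e-06) and had 0.02 for LCS against WT (adjusted p = 0.796). Atp6v1b2, the ubiquitous form of the other hexamer subunit B, fell by 0.14 in G609G (adjusted p = 0.00411, but -0.05 and not called with the mean of probe sets) and rose by 0.30 in LCS (SE 0.04, adjusted p = 4.47e-05). Atp6v1h, the regulatory subunit H, was higher by 0.41 in G609G (SE 0.05, adjusted p = 5.94e-06), a direction that turned on the deposited scale (-0.05, adjusted p = 0.466). Atp6v1c1 and Atp6v1d, of the stator and the rotating stalk, fell by 0.18 each in G609G, and the call on Atp6v1d was lost without G609G replicate 1 (-0.13) or WT replicate 3 (-0.13). Atp6v1c2, a tissue-restricted C subunit, fell by 0.30 in LCS against WT (adjusted p = 0.0136) and was higher by 0.48 in G609G than in LCS (adjusted p = 0.000264), against -0.015 as deposited. On the scaled values the median gene at its level, between 5 and 6, had 0.25 in the same comparison. Its first call was lost without LCS replicate 1 (-0.27) or WT replicate 1 (-0.27), and with quantile normalisation (-0.17). Of the remaining genes, Atp6v1b1 and Atp6v1f were called in no comparison. In all, 3 of the 12 tested V1 genes rose and 6 fell for G609G against WT, 2 rose and 2 fell for LCS against WT, and 4 were higher and 5 lower for G609G against LCS. The shares of all genes called higher and lower were 34.0% and 36.7%, 22.3% and 17.7%, and 36.9% and 36.9% in the same order.

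The accessory proteins differed from each other. Atp6ap1, which helps to assemble V0, fell by 0.25 for G609G against WT (SE 0.03, limma adjusted p = 3.06e-05) and had 0.04 for LCS against WT (adjusted p = 0.418). Atp6ap2, also known as the prorenin receptor, was higher by 0.18 in G609G (SE 0.04, adjusted p = 0.00261), but lower as deposited (-0.28) and not called without the intensity filter (0.03), and rose by 0.25 in LCS (SE 0.04, adjusted p = 0.000591).

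**Figure D1:**
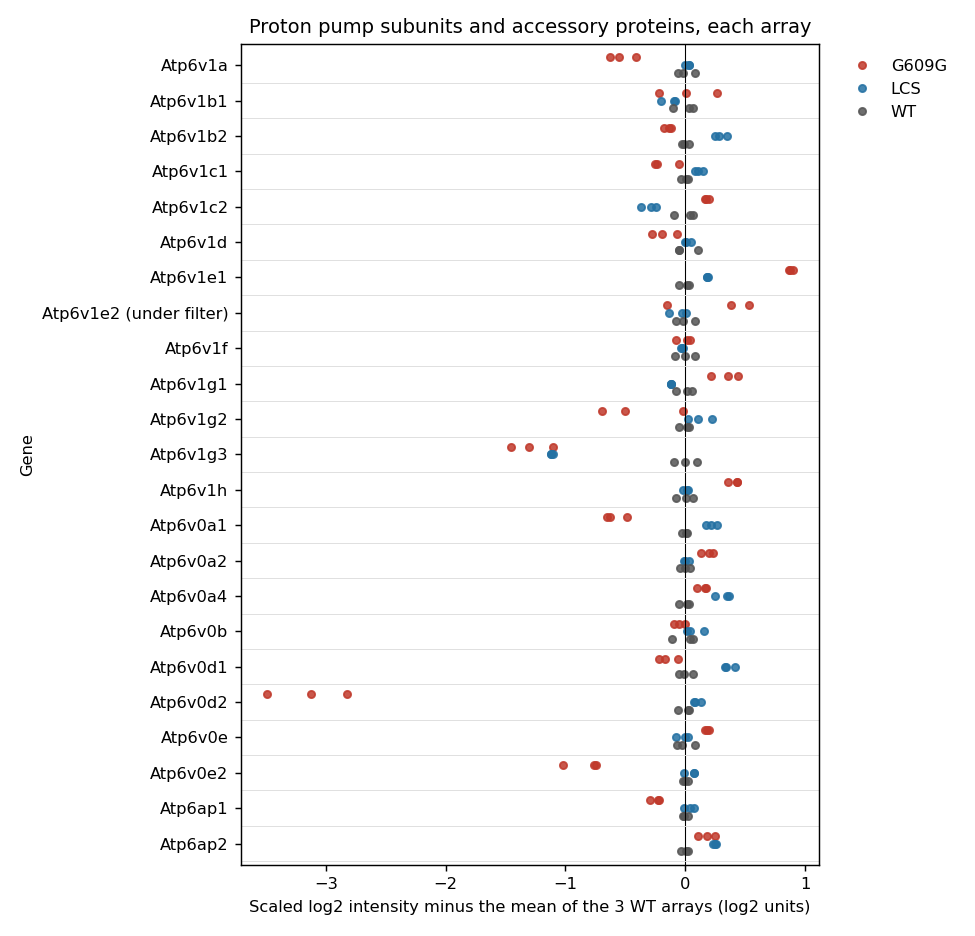
Each point is 1 array of G609G, LCS or WT fat, as scaled log2 intensity minus the mean of the 3 WT arrays, for the 23 pump and accessory genes. The G609G arrays of Atp6v0d2 lie about 3 log2 units below WT, both mutants lie below WT for Atp6v1g3, and the G609G arrays of Atp6v1e1 lie above WT; Atp6v1e2 was under the filter.

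The Lamp proteins make up much of the lysosomal membrane's protein coat. Lamp1 had 11.80, 11.82 and 11.81 on the G609G arrays, 11.99, 12.00 and 12.01 on the LCS arrays and 12.13, 12.16 and 12.03 on the WT arrays. The groups did not overlap, with G609G lowest. Lamp1 fell by 0.30 in G609G (SE 0.03, limma adjusted p = 5.32e-06) and by 0.11 in LCS (SE 0.03, adjusted p = 0.0211), the second call being lost without either of WT replicates 1 and 2 (-0.10 and -0.08) or LCS replicates 1 and 2 (-0.10 and -0.11), and in the fit without trend (adjusted p = 0.0975). Lamp2, whose isoform Lamp2a is the receptor of chaperone-mediated autophagy, was higher by 0.26 in G609G (SE 0.04, adjusted p = 0.000131), against -0.21 as deposited, and had 0.01 in LCS (adjusted p = 0.888). Lamp3, the form of activated dendritic cells, was under the filter.

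Most cathepsins were lower in G609G and higher in LCS. Of 12 tested cathepsins, 2 rose and 7 fell for G609G against WT, with a median of -0.44, 9 rose and 1 fell for LCS against WT, with a median of 0.23, and 2 were higher and 10 lower for G609G against LCS, with a median of -0.70. The shares called higher and lower among all genes were 34.0% and 36.7%, 22.3% and 17.7%, and 36.9% and 36.9% in the same order. On the deposited scale 1 rose and 11 fell in G609G, beside 8.26% and 71.3% of all genes, and 9 rose and 1 fell in LCS, beside 22.5% and 13.0%. The 20 tested pump subunits had medians of -0.10, 0.03 and -0.17 in the same comparisons.

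Cathepsin B, from Ctsb, is an abundant cysteine endopeptidase of most lysosomes. Ctsb had 11.25, 11.32 and 11.34 on the G609G arrays, 12.33, 12.36 and 12.33 on the LCS arrays and 12.25, 12.24 and 12.15 on the WT arrays. The G609G arrays stood apart from both other groups, and LCS lay just above WT. The difference was -0.91 (SE 0.03, limma adjusted p = 1.82e-10) for G609G against WT, a 1.88-fold lower intensity, 0.13 (SE 0.03, adjusted p = 0.00755) for LCS against WT and -1.04 (SE 0.03, adjusted p = 4.49e-11) for G609G against LCS. The call in LCS was lost in the fit without trend (adjusted p = 0.0521).

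Cathepsin C, from Ctsc, is a dipeptidyl peptidase that activates the serine proteases of immune cells. Ctsc had 9.21, 9.18 and 9.36 on the G609G arrays, 10.41, 10.43 and 10.49 on the LCS arrays and 10.32, 10.27 and 10.27 on the WT arrays. As for Ctsb, G609G was lowest, with a gap that exceeded the spread within groups many times over. The difference was -1.04 (SE 0.05, limma adjusted p = 1.56e-09) for G609G against WT, a 2.05-fold lower intensity, 0.16 (SE 0.05, adjusted p = 0.0174) for LCS against WT and -1.20 (SE 0.05, adjusted p = 3.33e-10) for G609G against LCS. The call in LCS was lost without LCS replicate 3 (0.13), WT replicate 2 (0.15) or WT replicate 3 (0.15), with the mean of probe sets (0.08), and in the fit without trend (adjusted p = 0.0504).

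Cathepsin S, from Ctss, processes the invariant chain in antigen-presenting cells and stays active at neutral pH. Ctss had 7.60, 7.11 and 7.67 on the G609G arrays, 8.55, 8.61 and 8.55 on the LCS arrays and 8.46, 8.46 and 8.44 on the WT arrays. G609G replicate 2 was the lowest array, and even the highest G609G array was below all others. The difference was -0.99 (SE 0.11, limma adjusted p = 7.98e-06) for G609G against WT, 0.12 (SE 0.11, adjusted p = 0.452) for LCS against WT and -1.11 (SE 0.11, adjusted p = 2.54e-06) for G609G against LCS.

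Cathepsin L, from Ctsl, an endopeptidase of most lysosomes, was with Ctsz one of the cathepsins called higher in G609G. Ctsl had 12.20, 12.17 and 12.16 on the G609G arrays, 11.79, 11.83 and 11.85 on the LCS arrays and 11.32, 11.30 and 11.18 on the WT arrays. The groups did not overlap, in the order G609G, LCS, WT. The difference was 0.91 (SE 0.04, limma adjusted p = 4.22e-10) for G609G against WT, a 1.88-fold higher intensity, and 0.56 (SE 0.04, adjusted p = 1.71e-07) for LCS against WT. Both rises stood on the deposited scale, with 11.85, 11.84 and 11.88 in G609G and 11.99, 11.98 and 12.02 in LCS against 11.43, 11.41 and 11.38 in WT, while the order of the mutants turned: 0.35 (SE 0.04, adjusted p = 2.18e-06) for G609G against LCS was -0.14 as deposited.

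Of the remaining cysteine cathepsins, Ctsz, Ctsk, Ctso and Ctsf rose in LCS. Ctsz, cathepsin Z, a carboxypeptidase of immune cells, had 10.03, 10.16 and 10.13 on the G609G arrays, 10.75, 10.80 and 10.73 on the LCS arrays and 10.00, 9.95 and 10.03 on the WT arrays, a rise of 0.77 in LCS (SE 0.04, limma adjusted p = 3.28e-08). Its call in G609G (0.11, adjusted p = 0.0267) was lost without G609G replicate 2 (0.09) or 3 (0.10) or WT replicate 1 (0.12) or 2 (0.09), with quantile normalisation (0.063) or cyclic loess (0.079), in the fit without trend and in that on 2 groups. It had the other sign as deposited (-0.35) and without the intensity filter (-0.031). Ctsk, the collagen-degrading cathepsin of osteoclasts, had 6.28, 6.45 and 6.49 on the G609G arrays, 7.42, 7.15 and 7.34 on the LCS arrays and 6.58, 6.52 and 6.54 on the WT arrays. It rose by 0.76 in LCS (SE 0.09, adjusted p = 3.01e-05) and had -0.14 for G609G against WT (adjusted p = 0.181). Ctso rose by 0.38 in LCS (SE 0.07, adjusted p = 0.000884). Ctsf fell by 0.39 in G609G (adjusted p = 0.000129) and rose by 0.20 in LCS (adjusted p = 0.0245), the second of which was lost when any 1 of LCS replicates 1 and 3 or WT replicates 1 and 2 was left out (0.18 to 0.19). Ctsh, an aminopeptidase, was called neither in G609G (-0.04) nor in LCS (0.10).

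The aspartic cathepsins behaved unlike each other. Cathepsin D, from Ctsd, the main aspartic protease of lysosomes, had 11.39, 11.35 and 11.35 on the G609G arrays, 12.33, 12.32 and 12.34 on the LCS arrays and 12.04, 12.03 and 12.01 on the WT arrays. No group spanned more than 0.04, and the differences were -0.66 (SE 0.02, limma adjusted p = 2.05e-10) for G609G against WT, 0.30 (SE 0.02, adjusted p = 1.13e-06) for LCS against WT and -0.97 (SE 0.02, adjusted p = 5.63e-12) for G609G against LCS. Cathepsin E, from Ctse, a protease of endosomes in gut, skin and immune cells, had 6.5, 6.42 and 6.46 on the G609G arrays, 5.83, 5.81 and 5.69 on the LCS arrays and 8.07, 7.98 and 7.68 on the WT arrays. Here LCS was lowest, at values near the filter on dim genes. The difference was -1.45 (SE 0.10, adjusted p = 7.19e-08) for G609G against WT, -2.13 (SE 0.10, adjusted p = 9.65e-09) for LCS against WT and 0.68 (SE 0.10, adjusted p = 5.63e-05) for G609G against LCS, which was 0.18 as deposited (adjusted p = 0.0916).

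Ctsa, the serine carboxypeptidase that also protects other lysosomal enzymes, had 10.83, 10.75 and 10.75 on the G609G arrays, 11.54, 11.47 and 11.53 on the LCS arrays and 11.27, 11.24 and 11.25 on the WT arrays. It followed the pattern of Ctsd, with -0.48 for G609G against WT (SE 0.03, limma adjusted p = 6.49e-08) and 0.26 for LCS against WT (SE 0.03, adjusted p = 4.3e-05). Of the 3 members with TCACGTGA whose promoters are printed, all fell in G609G, as did 36.7% of all genes. In LCS Ctsa and Ctsd rose, as did 22.3% of all genes, and Atp6v1a was not called (0.02). Of the other members with that motif, Atp6v0d1 fell and Atp6v0e was higher in G609G. In LCS Atp6v0d1 rose (0.36) and Atp6v0e was not called (-0.01). A link between the motif and the direction was not tested.

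**Figure D2:**
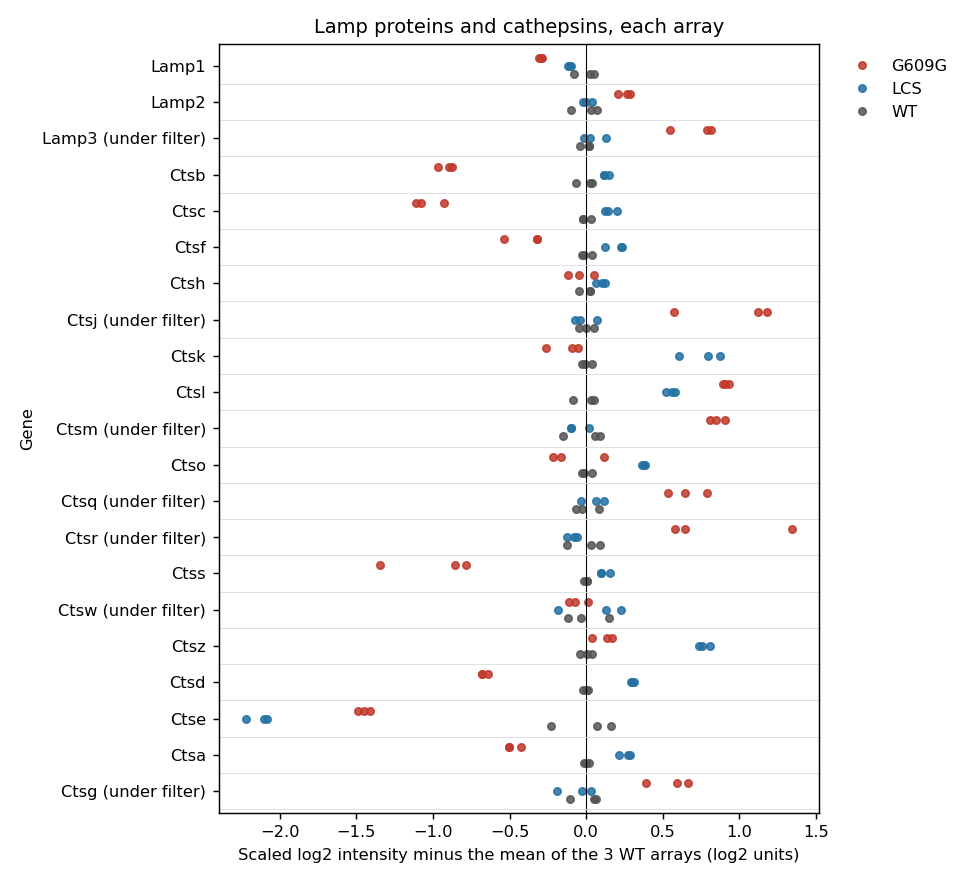
Each point is 1 array of G609G, LCS or WT fat, as scaled log2 intensity minus the mean of the 3 WT arrays, for the 21 Lamp and cathepsin genes. Ctsb, Ctsc, Ctsd, Ctss and Ctsa lie left of WT in G609G, Ctsl lies right of WT in both mutants, Ctsz and Ctsk lie right of WT in LCS, and Ctse lies left of WT in both; genes under the filter are marked.

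Macrophage markers moved with most cathepsins in both mutants. Of 13 tested, 1 rose and 9 fell for G609G against WT (median -0.73), with Csf1r, the growth factor receptor of these cells, at -1.07, Emr1, now named Adgre1, at -1.56, Lyz2 at -0.76 and Cd68 at -0.91. Cd14 was the 1 that rose (0.25), while Cd163 (-0.02), Fcgr1 (-0.18) and Msr1 (-0.21) were not called. In LCS minus WT 8 rose and none fell (median 0.34), with Cd163 at 0.82 and Itgam at 0.67. Their mean was 7.44 to 7.52 on the G609G arrays, 8.37 to 8.45 on the LCS arrays and 8.10 to 8.12 on the WT arrays, and all 13 measured markers passed the filter. On the deposited scale none rose and 12 fell in G609G, beside 8.26% and 71.3% of all genes. On the scaled values 34.0% of all genes were called higher and 36.7% lower in G609G, and 22.3% and 17.7% in LCS. Fibroblast markers also fell in G609G, 10 of 12, and 7 of 12 rose in LCS, with 1 the other way in each mutant. Of 9 antigen-presenting cell markers 1 rose and 5 fell in G609G and 3 rose in LCS, of 5 natural killer and cytotoxic cell markers 2 rose and 3 fell in G609G and 1 rose and 1 fell in LCS, and of 5 mast cell and neutrophil markers 2 rose and 1 fell in G609G and 2 rose in LCS. The part of these cells in the changes of the cathepsins was not tested.

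The 8 members under the filter were Atp6v1e2, the testis isoform of subunit E, Lamp3, Ctsg of neutrophils, Ctsw of cytotoxic lymphocytes, and Ctsj, Ctsm, Ctsq and Ctsr, cysteine cathepsins of the mouse placenta. Their mean levels were between 3.80 and 5.01 in G609G, between 3.20 and 4.70 in LCS and between 3.14 and 4.75 in WT. G609G minus WT had a median of 0.69 over them, ranging from -0.06 to 0.96, beside 0.48 over all 3781 genes under the filter with enough probe sets. LCS minus WT ranged from -0.08 to 0.06. None of the 7 measured trophoblast markers passed the filter.

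**Figure D3:**
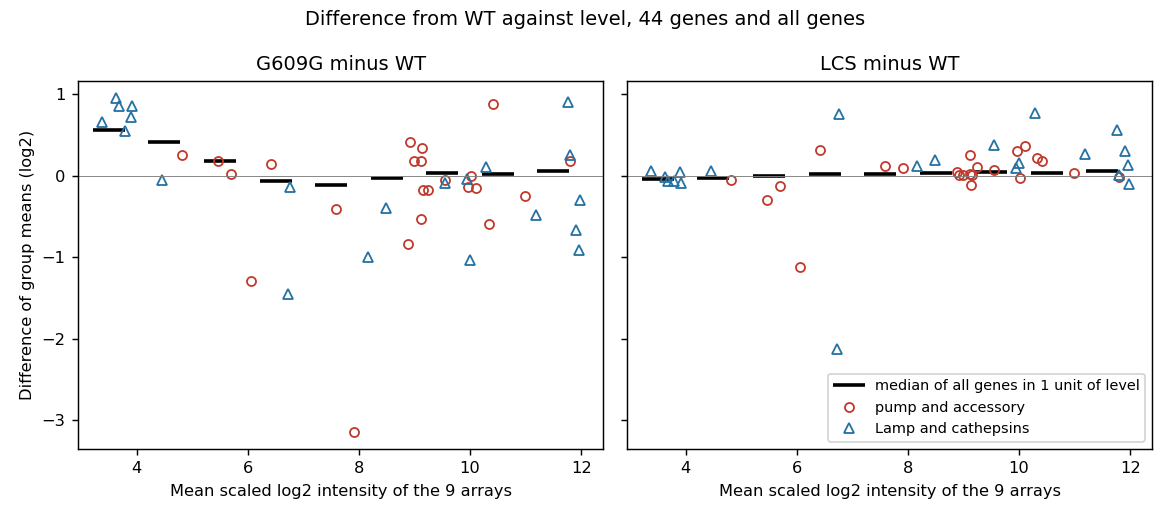
The difference of group means (log2, G609G minus WT on the left, LCS minus WT on the right) is plotted against the mean scaled log2 intensity of the 9 arrays, for all 44 members, with bars for the median of all genes in 1 unit of level; the bars at either end take in all dimmer or brighter genes. Of the members under the filter, at the left, all but Ctsw lie above 0 in G609G, as do the bars there. In G609G Atp6v0d2, Ctse, Atp6v1g3, Ctsb, Ctsc and Ctss lie well below the bars at their level.

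Exon arrays measure each gene with several probe sets, so it can be asked whether all parts of a gene moved alike. Each of 448 member probe sets, from 38 genes, was tested against the other probe sets of its gene with limma's diffSplice. In G609G minus WT 68 (15.2%) were called, against 15.7% of all probe sets tested. In LCS minus WT 10 (2.23%) were called, against 1.82%, and for G609G against LCS 100 (22.3%), against 18.2%. Probe set values below are as deposited, so those of G609G carry the offset. Only the part of the offset that is alike over the probe sets of a gene cancels in the test. As the offset differed with level, a probe set much dimmer than the rest of its gene can still carry some of it. The positions of these probe sets in their genes were not used here.

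In Atp6v0d2, 10 of 11 probe sets were lower by 2.28 to 4.40 for G609G against WT. Probe set 4569617 was the other, with 8.09, 8.06 and 7.71 on the G609G arrays, 8.48, 8.31 and 8.05 on the LCS arrays and 8.36, 8.19 and 8.34 on the WT arrays. It stood 3.23 above the gene's other probe sets for G609G against WT (diffSplice adjusted p = 1.39e-16) and 3.40 above it for G609G against LCS (adjusted p = 9.49e-18). In Ctsa, probe set 4538462 averaged 5.63 in G609G, 5.72 in LCS and 5.21 in WT, 1.35 above the rest for G609G against WT (adjusted p = 4.11e-21) and 1.13 above it for G609G against LCS (adjusted p = 8.93e-17). Its values lie near the filter on dim probe sets at 5.01, far below the level of the gene. On the scaled values, genes between 5 and 6 had a median of 0.18 for G609G against WT, and those above 11 had 0.06. The part of level in the difference of this probe set was not tested.

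In Ctsh, 13 of 14 probe sets were lower as deposited in G609G, and 4567697 was higher, with means of 10.73 in G609G (SD 0.16), 10.17 in LCS (SD 0.13) and 9.97 in WT (SD 0.08, n = 3 each). It stood 1.39 above the rest of its gene for G609G against WT (diffSplice adjusted p = 1.76e-08) and 1.37 above it for G609G against LCS (adjusted p = 2.14e-08). Other probe sets with low p lay below the rest of their gene: 4366520 of Atp6v1d by -1.97 (adjusted p = 1.21e-09) and 5166111 of Atp6ap2 by -1.14 (adjusted p = 2.85e-08) for G609G against WT, the same probe set of Atp6ap2 by -1.27 (adjusted p = 7.58e-10) and 5506594 of Lamp1 by -1.20 (adjusted p = 3.49e-11) for G609G against LCS. Probe set 5525728 of Ctso lay 2.03 above the rest of its gene for G609G against LCS (adjusted p = 1.77e-10).

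Ctse, the member with the largest fall in LCS, did not fall evenly. Probe set 4475947 had 6.26, 5.72 and 6.98 on the G609G arrays, 3.74, 4.04 and 4.07 on the LCS arrays and 8.64, 8.64 and 9.01 on the WT arrays, a further -2.92 beyond the gene's other probe sets for LCS against WT (diffSplice adjusted p = 1.47e-07). Probe set 4965507 had 9.52, 9.56 and 9.83 on the G609G arrays, 9.67, 9.78 and 9.79 on the LCS arrays and 9.90, 10.00 and 9.94 on the WT arrays, 2.15 above the rest for LCS against WT (adjusted p = 0.000157). On that probe set every mutant array was just below the WT arrays. Probe set 4413746 had 6.94, 7.84 and 6.69 on the G609G arrays, 7.07, 7.07 and 6.57 on the LCS arrays and 7.3, 7.5 and 4.7 on the WT arrays. The groups of that probe set overlapped, and its mean was higher in the mutants through the low WT replicate 3. In Atp6v1b2, probe set 4868381 averaged 7.25 in G609G, 8.88 in LCS and 7.80 in WT, 0.76 above the rest for LCS against WT (adjusted p = 3.94e-07). Differences from the rest of the gene in LCS were also called on 1 probe set of Atp6v0d1 (-0.71, adjusted p = 0.000386) and 1 of Ctsl (-0.33, adjusted p = 0.0181). In Atp6v1c2 they were called on 2 probe sets, 4857668 (-1.94, adjusted p = 0.000782) and 4464420 (1.41, adjusted p = 0.0379).

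**Figure D4:**
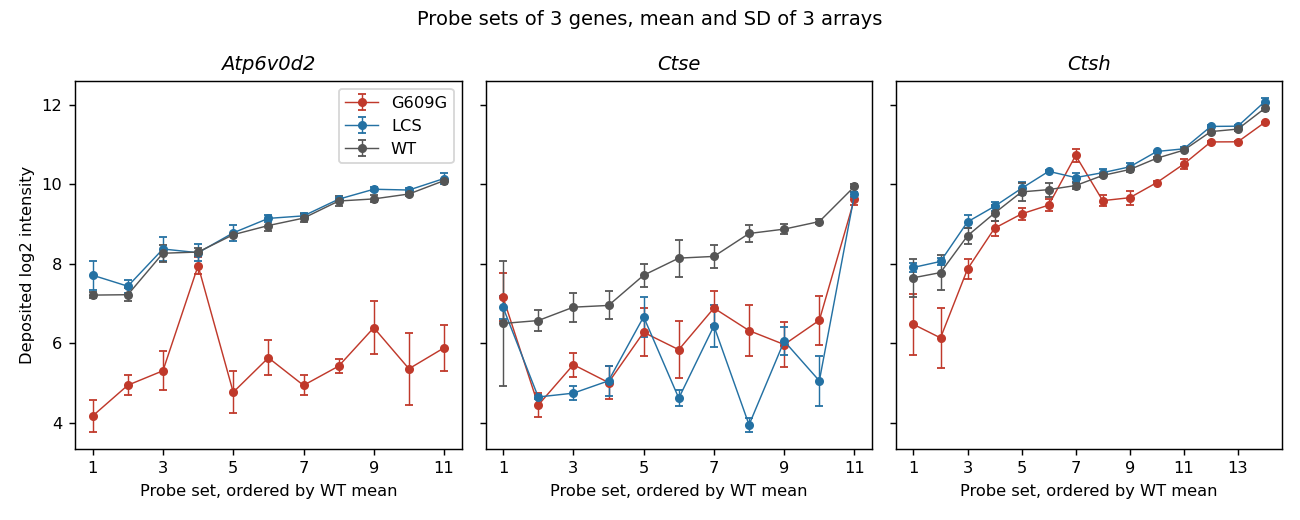
Deposited log2 intensity of each tested probe set of Atp6v0d2, Ctse and Ctsh, ordered by the WT mean, with points for the mean and bars for the SD of 3 arrays of G609G, LCS or WT. The fourth probe set of Atp6v0d2 and the last of Ctse lie near WT in all groups, and the seventh of Ctsh is above WT in G609G.

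Among genes outside the naming rule, most lysosomal hydrolases also fell in G609G. Of 34 tested genes listed as lysosomal hydrolases, 1 rose and 26 fell for G609G against WT (median -0.48), against 34.0% and 36.7% of all genes. For LCS against WT 17 rose and 1 fell (median 0.14), against 22.3% and 17.7%. The deposited scale gave 1 and 33 for G609G, beside 8.26% and 71.3% of all genes. The list also holds Tpp1, a protease, and Gnptab, which is not a hydrolase. The single rise in G609G was on Asah1, acid ceramidase, at 0.65 (limma adjusted p = 3.04e-09), which rose in LCS too (0.27). Smpd1, acid sphingomyelinase, had -0.46 in G609G and 0.44 in LCS, and Tpp1, a tripeptidyl peptidase, -0.49 and 0.28. Of 17 genes that sort such enzymes to lysosomes, 2 rose and 10 fell in G609G, with Sort1, a sorting receptor, at -1.02, and Gnptab, which makes the mannose phosphate tag and stands in the hydrolase list too, at -0.94, while 5 rose and 1 fell in LCS. The deposited scale gave 1 and 16 for G609G, beside the same 8.26% and 71.3% of all genes. Of 27 lysosomal membrane and transport genes, 8 rose and 16 fell in G609G, with Npc1, the cholesterol exporter, at 1.06, and 7 rose and 11 fell in LCS, against 3 and 22 as deposited in G609G. Slc29a3, a nucleoside transporter, fell in both, by 1.51 in G609G and by 0.82 in LCS.

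Autophagy genes mostly rose in G609G on the scaled values, a balance that turned on the deposited scale. Of 24 tested, 17 rose and 3 fell for G609G against WT (median 0.18), against 34.0% and 36.7% of all genes. Gabarapl1 had 1.43, Bnip3 1.22, Map1lc3b 1.01 and Ulk1 1.25. The deposited scale gave 8 and 14 (median -0.28), beside 8.26% and 71.3% of all genes. In LCS minus WT 9 rose and 3 fell (median 0.11), against 22.3% and 17.7%. Skeletal muscle markers were higher in G609G for 14 of 14 genes, and the part of muscle RNA in the autophagy results was not tested. Of 21 lysosomal regulators, 9 rose and 7 fell in G609G (median -0.08, against 0.02 by cyclic loess), and 2 and 13 as deposited, and 6 rose and 1 fell in LCS. Among the factors that bind the palindrome printed above, Tcfe3, the platform's name of Tfe3, fell by 0.99 in G609G (limma adjusted p = 7.97e-10) and rose by 0.13 in LCS (adjusted p = 0.0256), Mitf rose by 0.69 in G609G (adjusted p = 5.59e-07) and by 0.83 in LCS (adjusted p = 4.27e-07), and Tcfeb, for Tfeb, had 0.17 in G609G (adjusted p = 0.167) and 0.05 in LCS (adjusted p = 0.751). Of 9 genes that assemble or bind the pump, 2 rose and 5 fell in G609G, with Oxr1 at -0.66, and 2 rose and 2 fell in LCS. Of 3 tested cathepsin inhibitors, Cstb fell in G609G (-0.24), and Cst3 (0.14) and Serpinb6a (0.29) rose in LCS.

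**Figure D5:**
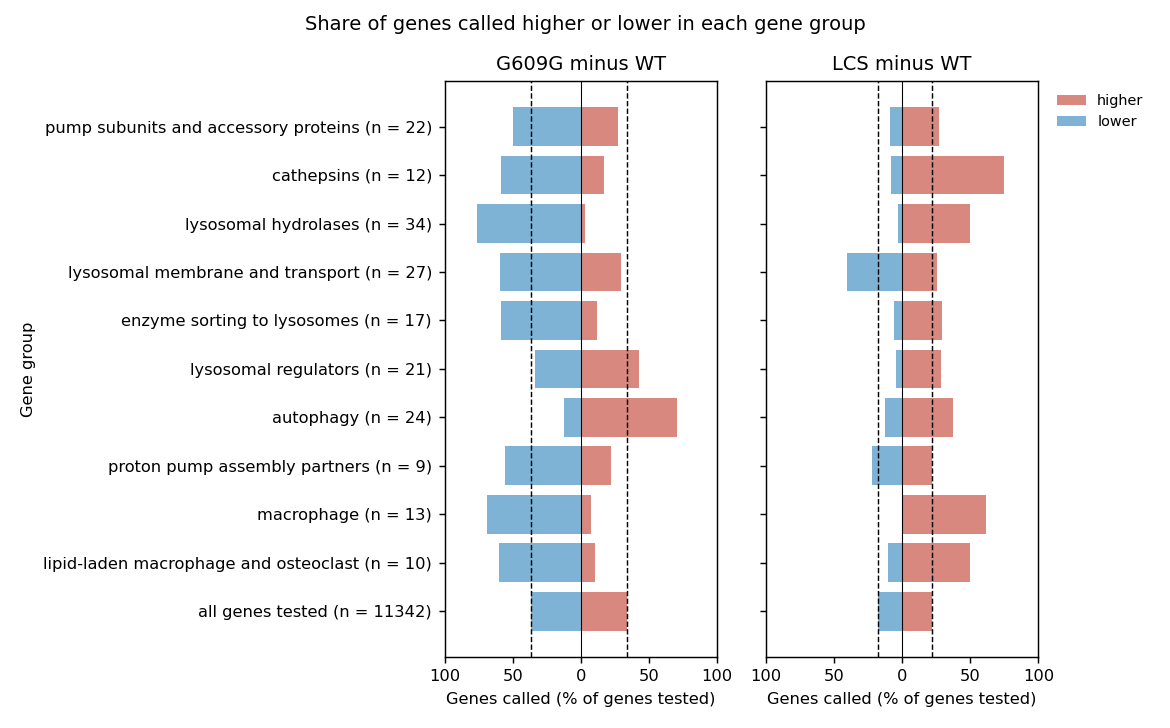
Bars give the share of the tested genes of each group that were called higher (right) or lower (left), in % of genes tested, for G609G minus WT and LCS minus WT, with dashed lines at the shares among all 11342 genes. Among the groups drawn, hydrolases extend furthest to the lower side and autophagy genes furthest to the higher side in G609G, and cathepsins extend furthest to the higher side in LCS.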

How the data were processed

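The authors deposited log2 intensities per probe set of an exon array, with a normalisation not given in the sources used here. Build mm9 stands in the submitters' processing notes. The design text counts 10 samples, and 9 arrays are analysed here. The table pairs probe sets with genes: 208397 had a single symbol, 3965 several and 17219 none, and those without a single symbol were left out.

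Gene values were summarised from at least 3 probe sets by median polish (up to 10 rounds). Each array was shifted to its median gene, since the deposited G609G arrays were lower for most genes. Genes under the 25th percentile of mean level (5.09) were left out of the tests, as were probe sets under 5.01. All 9 arrays entered 1 limma fit (3.58.1, in R 4.3.3) with a mean-variance trend, and p-values were adjusted by Benjamini-Hochberg over all 11342 genes. limma's diffSplice tested probe sets against their gene. Calls used an adjusted p under 0.05. Figures and promoter searches used Python 3.11.15 with matplotlib 3.10.9. The steps were tested on simulated data.

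The members and the gene lists were chosen with earlier results of these data known. By rule, all array values were given for members called with an absolute log2 difference of at least 1 and for their isoform families, up to 4 genes of each list and the 5 probe sets with the lowest p per comparison were named. Array values of other members, Tcfeb, and the further probe sets of Ctse were added after their values were seen. The 18 lists held 288 symbols, of which 242 were found under the listed name, 19 under an older one and 27 not at all. Alternatives were the deposited scale, quantile normalisation, other filters and summaries, fits without trend or on 2 groups, a replicate block, leaving out each array, the methods' t-test and, for probe sets, a splicing index.

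Labels give replicate numbers shared between groups, with no word on what they mark. Deviations of same-numbered arrays correlated with r of 0.168, 0.145 and 0.337 for G609G and WT, above the limit of pairing in every pair. They had r of -0.113, 0.204 and 0.085 for LCS and WT and of -0.121, 0.121 and 0.107 for G609G and LCS, where not every pair passed it. Of the 9 arrays, 7 correlated best with an array of the same number in another group. The fit with the replicate block paired all 9 arrays by number, LCS included, while the main fit had no block.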

Additional observations from a re-analysis of the deposited data

How the results depend on the processing

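As deposited, 2 members were higher and 32 lower for G609G against WT, beside 8.26% and 71.3% of all genes. For G609G against LCS 1 was higher, beside 9.38%. As deposited, these had the other sign for G609G against WT: Atp6ap2 (-0.28), Atp6v0a2 (-0.28), Atp6v0a4 (-0.32), Atp6v0e (-0.28), Atp6v1b1 (-0.44), Atp6v1c2 (-0.28), Atp6v1g1 (-0.12), Atp6v1h (-0.052), Ctsz (-0.35) and Lamp2 (-0.21). For G609G against LCS these were Atp6v0a2 (-0.32), Atp6v0e (-0.30), Atp6v1b1 (-0.35), Atp6v1c2 (-0.015), Atp6v1f (-0.47), Atp6v1g1 (-0.04), Atp6v1h (-0.092), Ctsl (-0.14) and Lamp2 (-0.25). Without the intensity filter Ctsz had -0.031 for G609G against WT and Atp6v1f -0.15 for G609G against LCS. For LCS against WT no called member changed sign in any setting run, while some that were not called, near 0, did.

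The methods' t-test at a fold of 1.5 called 2 members higher and 9 lower for G609G against WT, 2 and 2 for LCS against WT and 2 and 11 for G609G against LCS, and the same numbers after Benjamini-Hochberg. Of all genes it called 9.68% higher and 16% lower, 3.17% and 5.04%, and 12.1% and 17.2% in the same order. A filter at the 50th percentile left 1 member lower for LCS against WT, and 3 member probe sets called there (0.813%, against 1.31% of all). A splicing index called 4 (0.893%, against 0.851%) and, for G609G against LCS, 65 (14.5%, against 15.1%). Leaving out 1 array gave 2 to 5 members lower for LCS against WT, with 2 without LCS replicate 1 or WT replicate 1, and 66 to 123 probe sets called for G609G against LCS, with 66 without LCS replicate 3 (14.7%, against 12.1% of all) and 123 without G609G replicate 3 (27.5%, against 22.4%). Other causes were not tested.

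With the replicate block, Atp6v0b was called for G609G against LCS (-0.12, limma adjusted p = 0.0468), no other member's call changed, and 87, 11 and 111 probe sets were called for G609G against WT (19.4%, against 17.7% of all), LCS against WT (2.46%, against 2.11%) and G609G against LCS (24.8%, against 20.5%). Apart from the t-test, every setting gave the same call for 17 of 36 members for G609G against WT, 26 of 36 for LCS against WT and 21 of 36 for G609G against LCS. Cyclic loess was added after seeing the data. Probe sets near the filter have little signal over background, which limits what can be said of the dim members.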
